A study of Mus musculus with 4 samples.

Results

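The comparison described here set 2 pooled liver libraries labelled OGT-KO against each other: one from mice taken at the end of a choline-deficient, ethionine-supplemented (CDE) diet with no recovery, and one from mice taken after 7 days of recovery. These are 2 of the 4 libraries of the series. The other 2 are the control libraries at the same times, and they were used as values set beside the OGT-KO pair. All mice carried the OGT-Floxed allele on the C57BL/6J background and were fed the CDE diet. The virus given was AAV8-TBG-CRE in the groups labelled OGT-KO and AAV8-TBG-eGFP in those labelled Control. The TBG promoter is active in hepatocytes, so Cre was directed to those cells and not to the other cells of the liver. Each library was made from equal parts of the liver RNA of 3 mice, the mice of the 2 times are different animals, and their age and sex are not given in the sources used here. For each gene the change was taken as the difference in log2(CPM + 1) between 7 days and no recovery, where CPM is reads scaled to a library total of 1000000 on the listed genes. Of the 13903 genes in the table, 8963 averaged 10 CPM or more across all 4 libraries and were compared. Each group holds 1 library, so no replicate error can be given and no p-value is printed. A gene is called changed at 2-fold, and "rose" or "fell" is written of changes of at least 1.5-fold on that scale. Bounds in brackets are 95% exact intervals of a ratio of CPM, which cover counting error only and not the spread between mice.

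OGT attaches N-acetylglucosamine to serine and threonine residues of nuclear and cytosolic proteins, and OGA removes it. Choline is needed to make phosphatidylcholine and to export fat from hepatocytes, and ethionine, an analogue of methionine, interferes with S-adenosylmethionine. The CDE diet is therefore used to injure hepatocytes and to bring out bile duct-like progenitor cells, with inflammation and scarring. After such a diet is stopped, a mouse liver usually clears fat, replaces lost hepatocytes by division, and regains its metabolic enzymes.

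Ogt itself did not separate the libraries as their labels do. It stood at 55.3 CPM in the no-recovery library labelled OGT-KO and 77.7 CPM in the 7-day library labelled OGT-KO, against 64.7 and 55.7 CPM in the libraries labelled Control. At 7 days the library labelled OGT-KO thus held more Ogt RNA than its control, and the libraries are called here by their labels for that reason. The exons removed by Cre and the reads that fall on them are not given in the sources used here, so these values check the labels only in part. Oga, the gene of the enzyme that removes the sugar, stood at 46.5 and 57.0 CPM in the pair labelled OGT-KO and at 57.7 and 70.2 CPM in the control pair. Of the 9 genes compared in the O-GlcNAc and hexosamine list, 0 moved by 1.5-fold, and the largest change was that of Ogt, at 0.48 on the log2 scale.

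Hepatocyte RNA was abundant in every library. Albumin (Alb) was the most abundant transcript of each, with 41362 and 51507 CPM in the pair labelled OGT-KO and 47845 and 54435 CPM in the control pair. Lists of markers of other liver cells summed to more in both libraries labelled OGT-KO than in either control. The 22 bile duct and progenitor markers summed to 2508 and 2888 CPM against 325 and 331 CPM, the 27 stellate cell markers to 2135 and 2055 CPM against 449 and 324 CPM, and the 18 Kupffer cell markers to 2082 and 1591 CPM against 1111 and 867 CPM. Between no recovery and 7 days the defining markers of duct and stroma moved less than they differed from the controls, as in Krt19, a duct keratin (28.8 and 32.6 against 1.69 and 1.15 CPM), and Col1a1, a collagen (875 and 1192 against 20.98 and 16.5 CPM). In RNA from whole liver, fewer cells of a type and less RNA per cell cannot be told apart. The no-recovery library labelled OGT-KO also held RNA of pancreatic digestive enzymes. The 14 acinar genes in the table that lie under the filter summed to 74.4 CPM in it and to 0.576 CPM in the 7-day library labelled OGT-KO, against 0.847 and 0.851 CPM in the controls, and 9 of the 14 had 0 reads in the other libraries. The part of that tissue in the differences below was not tested.

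The libraries labelled OGT-KO held 22866431 reads with no recovery and 22567395 reads after 7 days, and the control libraries 21257763 and 19972699. A count of 3 reads corresponds to 0.131 to 0.150 CPM, taken as the smallest level the depth can show. The 100 highest genes took 34.1% and 34.3% of the reads in the pair labelled OGT-KO. Across the 8963 genes the median change was -0.03 and the SD 0.33 on the log2 scale. Of these genes 4075 were higher after 7 days by any amount (45.5%) and 4887 were lower. At 2-fold, 93 genes were higher after 7 days (1.04%) and 39 were lower (0.435%). At 1.5-fold, 374 rose (4.17%) and 209 fell (2.33%). The counting interval of every one of the 132 genes past 2-fold left out a ratio of 1, and that of 63 of the higher and 27 of the lower genes lay wholly past 2-fold. Genes just inside the limit included Cyp7a1 (36.5 to 74.5 CPM) and Srxn1 (1018 to 506 CPM), and genes just outside it included Ly6d (182 to 366 CPM) and Gdf15 (85.0 to 42.1 CPM).

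**Figure D1:**
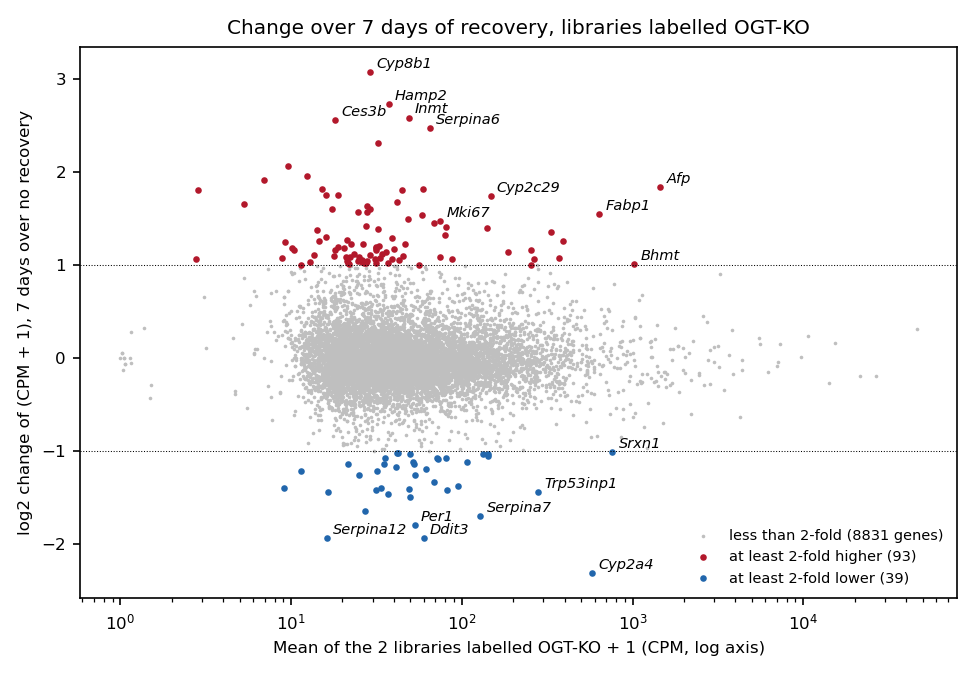
Change between no recovery and 7 days in the pair labelled OGT-KO (vertical axis, log2 of CPM + 1) against the mean level of the same pair plus 1 (horizontal axis, CPM, log scale), 1 point per gene. Red points are the 93 genes at least 2-fold higher and blue points the 39 at least 2-fold lower. Cyp8b1 is the highest point (3.08) and Cyp2a4 the lowest (-2.31), and the called genes spread over all levels up to about those of Afp.

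Genes of cell division moved together. Of the 43 mitosis and cytokinesis genes in the table, all 43 were higher after 7 days in the pair labelled OGT-KO and 42 were higher by at least 1.5-fold. The filter, an average over all 4 libraries, was passed by 20 of them, and 19 of these rose (4.17% of all genes compared did). The median over all 43 was 0.91, and the summed level of the list went from 602 to 1215 CPM, against 60.8 and 75.4 CPM in the control pair. All 20 genes compared stood above both control libraries at both times. The control levels of these genes were low, so the filter passed mainly genes high in the libraries labelled OGT-KO. The summed level of all 43, which the filter does not touch, lay further from the controls at 7 days than with no recovery. Mki67, the gene of the proliferation antigen Ki67, went from 38.5 to 108.7 CPM, a ratio of 2.82 (2.61 to 3.05), and the control libraries held 3.01 and 3.55 CPM. Ccnb2, the cyclin B2 gene that drives entry into mitosis, went from 11.4 to 29.0 CPM (controls 1.08 and 1.20). Cdc20, an activator of the anaphase-promoting complex, went from 18.2 to 42.6 CPM (controls 1.51 and 3.71). Cdca3, which is needed for mitotic entry, went from 18.7 to 44.5 CPM (controls 2.92 and 3.86). In each of these genes the order of the 4 libraries was the same, with the 7-day library labelled OGT-KO highest and both controls lowest.

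The promoters of 3 of these genes are shown because members of the list share short motifs there. Each line is the 250 bases before the start site, from RefSeq on GRCm38.p6: Mki67 at chr7:135716380-135716629, Cdc20 at chr4:118437344-118437593 and Ccnb2 at chr9:70421555-70421804, all on the minus strand and printed 5′ to 3′. Capitals mark TTTGAA, the core of the cell cycle homology region bound by complexes that hold mitotic genes down in resting cells, and CCAAT, the box bound by NF-Y, read on both strands (ATTGG is CCAAT on the other strand). No marked motif overlaps another.
Mki67: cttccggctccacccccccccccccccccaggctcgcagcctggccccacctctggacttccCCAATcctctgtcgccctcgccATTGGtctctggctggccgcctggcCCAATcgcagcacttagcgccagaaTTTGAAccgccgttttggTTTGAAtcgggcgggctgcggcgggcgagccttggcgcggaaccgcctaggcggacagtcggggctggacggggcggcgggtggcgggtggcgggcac
Cdc20: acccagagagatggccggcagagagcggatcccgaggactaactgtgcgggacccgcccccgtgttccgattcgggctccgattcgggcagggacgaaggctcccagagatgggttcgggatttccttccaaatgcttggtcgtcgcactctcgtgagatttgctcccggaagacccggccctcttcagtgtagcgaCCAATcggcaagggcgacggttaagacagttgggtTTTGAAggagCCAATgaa
Ccnb2: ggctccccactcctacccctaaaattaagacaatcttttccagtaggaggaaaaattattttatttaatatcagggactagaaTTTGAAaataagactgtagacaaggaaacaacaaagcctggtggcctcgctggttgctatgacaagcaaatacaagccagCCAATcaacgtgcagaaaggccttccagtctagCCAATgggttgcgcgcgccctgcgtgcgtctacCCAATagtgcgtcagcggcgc
Of the 16 compared members with a promoter in the table used, 9 held TTTGAA (56.2%) and 14 held CCAAT (87.5%) on either strand. Over all 27025 promoters of the same length the shares were 18.3% and 37.5%, and over the 7178 of genes compared here 12.5% and 39.8%. A match is a description of the letters and not evidence of binding.

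The DNA replication list moved less than the mitosis list. Of 23 members compared, 11 rose and 0 fell, with a median of 0.51 (control pair -0.06), and 37 of all 39 members were higher after 7 days. E2f8, a repressor of the E2F family that is itself made in S phase, went from 6.91 to 19.6 CPM. In the control libraries E2f8 stood at 18.5 and 31.8 CPM, so this gene lay lower in the no-recovery library labelled OGT-KO than in either control. Uhrf1, which maintains DNA methylation after replication, went from 14.7 to 35.8 CPM (controls 0.847 and 0.451). Tk1, a thymidine kinase, went from 13.8 to 26.3 CPM. The cyclin D1 gene Ccnd1, which acts before S phase, went from 251 to 437 CPM (controls 42.5 and 47.3).

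Markers of p53 activity and of DNA damage went the other way. Of 26 members compared, 0 rose and 13 fell (2.33% of all genes compared fell), 5 of them past 2-fold, with a median of -0.57 (control pair -0.10). Cdkn1a, the gene of the cell cycle inhibitor p21, went from 191 to 93.1 CPM, a 2.05-fold lower level (1.95 to 2.16), and the controls held 10.9 and 5.86 CPM. Trp53inp1, a p53-induced stress protein, went from 408 to 150 CPM (controls 64.1 and 35.6). Btg2, an antiproliferative p53 target, went from 97.3 to 45.5 CPM (controls 13.3 and 9.11), and Phlda3, an inhibitor of Akt, from 55.6 to 27.0 CPM (controls 0.894 and 1.15). At 7 days all 4 still stood above both controls. Plk3, a stress kinase and the fifth member past 2-fold, went from 137 to 52.1 CPM and in the controls from 138 to 65.3 CPM. Cdkn1a, Trp53inp1 and Plk3, 3 members of the list, fell in the control pair as well.

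The stress-response genes showed falls in both pairs. In the list of the unfolded protein and integrated stress response, 9 of 34 members fell and 1 rose, with a median of -0.15, and the control pair had a median of -0.37. Ddit3, the gene of the death-promoting factor CHOP, went from 93.8 to 23.8 CPM, a 3.93-fold lower level (3.58 to 4.33), and from 12.3 to 5.31 CPM in the controls. Trib3, a pseudokinase induced by CHOP and ATF4, went from 97.3 to 38.1 CPM while the controls held 5.36 and 6.21 CPM. Atf4 itself went from 206 to 117 CPM, with 130 and 134 CPM in the controls. Asns, asparagine synthetase and an ATF4 target, was the member that rose, from 26.4 to 42.2 CPM. The endoplasmic reticulum protein gene Herpud1 stood lower in the pair labelled OGT-KO than in the controls at both times, going from 178 to 86.7 CPM against 476 and 297 CPM.

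Immediate early genes, the first to be transcribed when a cell is stimulated, were mostly lower after 7 days. Of 18 members compared, 8 fell and 1 rose, with a median of -0.54 (control pair -0.24). Atf3 went from 47.6 to 17.5 CPM and from 2.96 to 0.801 CPM in the controls. Dusp1, a phosphatase that ends MAP kinase signals, went from 39.7 to 19.4 CPM, while in the controls it stood at 19.6 and 27.5 CPM. Klf2, a flow-responsive factor of endothelium, went from 31.1 to 15.7 CPM (controls 11.4 and 4.11). The member that rose was Egr1, from 40.3 to 67.6 CPM (controls 57.2 and 40.2). Heat shock proteins and chaperones fell in 6 of 26 members and rose in 0, with a median of -0.24, and the control pair had 12 falls and a median of -0.52. Hspa1b, an inducible Hsp70 gene, went from 12.2 to 4.03 CPM and in the controls from 48.2 to 4.66 CPM. Hspa1b has a near-identical copy, Hspa1a, and the sum of the 2 fell from 16.2 to 5.05 CPM. Among the clock genes, 3 of 18 fell and 1 rose, with a median of -0.08, and the control pair had 6 falls, 0 rises and a median of -0.28. Per1, a period gene that stress hormones also induce, went from 81.4 to 22.7 CPM and from 24.3 to 10.1 CPM in the controls, Noct from 31.1 to 16.5 CPM and Per2 from 29.6 to 16.7 CPM, and Hlf rose from 10.5 to 19.2 CPM. The hour at which livers were taken is not given in the sources used here.

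**Figure D2:**
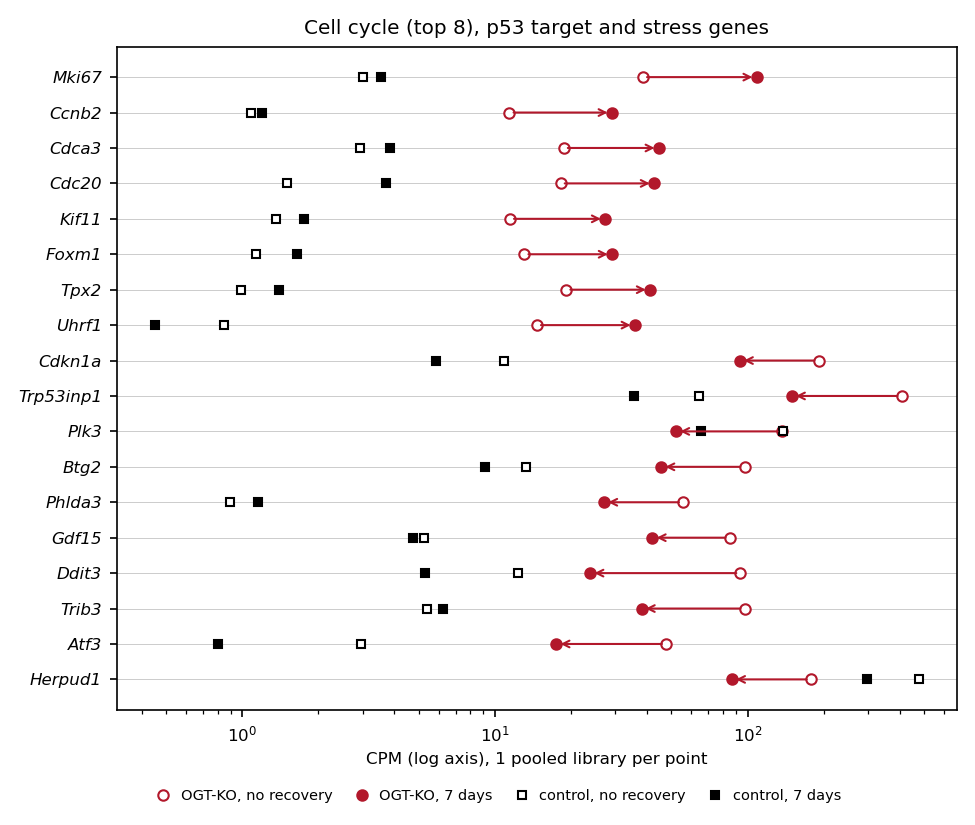
Level of 8 cell cycle genes (top) and of 10 p53 target and stress genes (below) in each pooled library (horizontal axis, CPM, log scale). Open and filled red circles are the libraries labelled OGT-KO with no recovery and at 7 days, joined by an arrow, and open and filled black squares are the controls at the same times. The arrows of the 8 cell cycle genes plotted (Mki67, Ccnb2, Cdca3, Cdc20, Kif11, Foxm1, Tpx2 and Uhrf1) point away from the control squares, as for Mki67 (38.5 to 108.7 CPM against 3.01 and 3.55), and those of Cdkn1a and Ddit3 point towards them without reaching them.

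Most of the largest rises were of enzymes, carriers and plasma proteins of mature hepatocytes that stood far below the controls. Of the 93 genes at least 2-fold higher, 61 were below both control libraries at no recovery and 53 of these were still below both at 7 days. A further 5 came to lie between the controls and 3 went above both. The no-recovery level is part of the rule that picked the 93 genes, which favours genes low in that library. The share of all genes below both controls was not counted. Cyp8b1, the hydroxylase that turns bile acid synthesis towards cholic acid, had the largest change, 3.08 on the log2 scale. It went from 5.16 to 51.0 CPM in the pair labelled OGT-KO, a ratio of 9.89 (8.18 to 12.1), and stood at 348 and 412 CPM in the controls. Inmt, an amine methyltransferase, went from 12.9 to 83.0 CPM (controls 303 and 263). Ces3b, a carboxylesterase of the endoplasmic reticulum, went from 4.24 to 30.0 CPM (controls 693 and 887). The sum of Ces3a and Ces3b moved by less, 0.85 on the log2 scale, from 273 to 493 CPM (controls 3315 and 3480). For Cyp8b1, Inmt and Ces3b both controls stood well above the 7-day level. Serpina6, the corticosteroid-binding globulin of plasma, also stayed under both controls but came closer to them, going from 18.8 to 109.0 CPM (controls 126 and 147). Hamp2 also had 1 of the 5 largest rises, but it went from 8.70 to 63.8 CPM and stood above the controls (6.02 and 10.1). Hamp2 is a copy of the hepcidin gene Hamp, and the sum of the 2 moved by only 0.26 on the log2 scale, from 797 to 957 CPM.

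**Figure D3:**
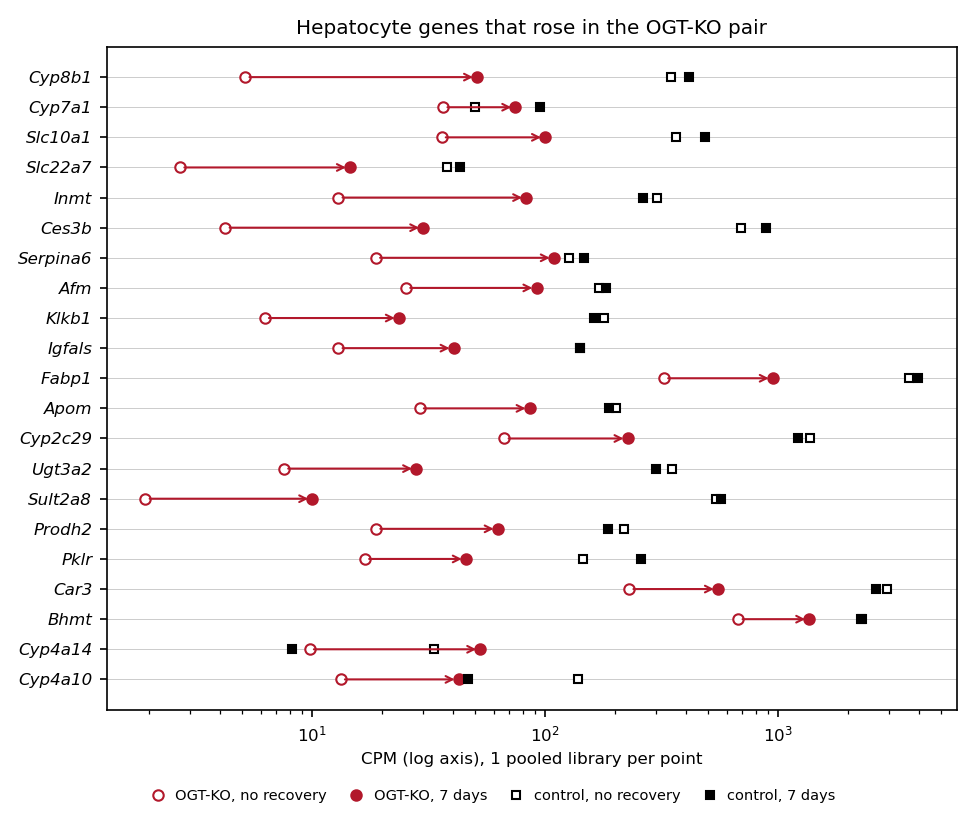
Level of 21 hepatocyte genes that rose in the pair labelled OGT-KO, in each pooled library (horizontal axis, CPM, log scale). Open and filled red circles are the libraries labelled OGT-KO with no recovery and at 7 days, joined by an arrow, and open and filled black squares are the controls at the same times. Most filled circles remain left of both squares, as for Cyp8b1 (51.0 CPM against 348 and 412), and Cyp4a14 ends right of both.

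Bile acid genes rose at several steps. Of the 18 bile acid synthesis genes, 5 rose and 0 fell, with a median of 0.42 (control pair 0.07), and 13 stood below both controls at both times. The share of all genes in that position was not counted, and 39 of 70 oxidative phosphorylation genes were in it. Besides Cyp8b1, the members that rose were Fgfr4, the receptor through which intestinal FGF15 restrains synthesis (17.4 to 38.9 CPM), the rate-limiting hydroxylase Cyp7a1 (36.5 to 74.5 CPM), and the reductases Akr1d1 (55.8 to 100.3 CPM) and Akr1c6 (165 to 285 CPM). Cyp7a1 moved by nearly as much in the control pair, from 49.8 to 94.5 CPM. Of the 16 transporters compared, 3 rose and 2 fell. Slc10a1, the sodium-dependent importer of bile acids, went from 35.9 to 99.9 CPM, a ratio of 2.78 (2.57 to 3.02), against 363 and 483 CPM in the controls. The anion carrier Slc22a7 went from 2.71 to 14.5 CPM (controls 37.7 and 43.0), and Abcb11, the canalicular exporter of bile salts, from 345 to 518 CPM (controls 708 and 630). The members that fell were Slco1a1, a sex-biased importer (14.9 to 5.85 CPM, controls 280 and 282), and Abcc4, a basolateral exporter used in cholestasis (84.9 to 45.02 CPM, controls 3.53 and 2.25).

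The Cyp4 hydroxylases, which oxidize the terminal carbon of fatty acids and of which some are targets of PPAR-alpha, included genes that moved in opposite directions in the 2 pairs. Of 11 members compared, 6 rose and 0 fell in the pair labelled OGT-KO, with a median of 0.59, while in the control pair 0 rose and 4 fell. Cyp4a14 went from 9.75 to 52.7 CPM, a ratio of 5.40 (4.68 to 6.26), and in the controls from 33.2 to 8.16 CPM. Cyp4a10 went from 13.3 to 42.5 CPM and in the controls from 138 to 46.4 CPM. At 7 days the libraries of both labels therefore held similar levels of Cyp4a10, reached from opposite sides. The other members that rose were Cyp4a31 (10.4 to 25.1 CPM), Cyp4f14 (51.6 to 97.9 CPM), Cyp4a32 (1.40 to 2.79 CPM) and Cyp4a12b (13.2 to 20.4 CPM). Cyp4a10, Cyp4a14, Cyp4a31 and Cyp4a32 are related in sequence, and the handling of shared reads is not given in the sources used here. Their sum was therefore taken as well, and it went from 34.8 to 123 CPM and in the controls from 191 to 78.7 CPM. Fatty acid oxidation genes in general did not share this: 3 of 32 rose and 0 fell, with a median of 0.08. The 3 were the thioesterases Acot4 (8.27 to 21.9 CPM) and Acot1 (5.38 to 13.3 CPM) and the peroxisomal thiolase Acaa1b (190.1 to 307 CPM). The sum of Acot1 to Acot4 went from 44.8 to 64.4 CPM, a change of 0.52 on the log2 scale that misses 1.5-fold. Fabp1, the main fatty acid carrier of hepatocytes, went from 323 to 949 CPM, a ratio of 2.93 (2.86 to 3.01), against 3629 and 3994 CPM in the controls. Cidec, a lipid droplet protein that rises in fatty liver, went the other way, from 96.0 to 45.1 CPM (controls 4.80 and 4.31).

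Sterol synthesis genes were nearly all higher after 7 days. Of the 21 cholesterol synthesis genes, all compared, 8 rose and 0 fell, 20 were above 0, and the median was 0.45 (control pair 0.04). Hsd17b7, which reduces a keto group late in the pathway, went from 4.07 to 18.7 CPM, a ratio of 4.60 (3.67 to 5.82), against 55.8 and 60.4 CPM in the controls. The isomerase Idi1 went from 9.40 to 19.4 CPM (controls 38.3 and 41.2). Hmgcs1, an early synthase of the pathway, went from 168 to 290.1 CPM (controls 348 and 351), and Nsdhl, a sterol dehydrogenase, from 32.4 to 55.4 CPM (controls 74.7 and 84.0). All 4 approached the controls and none reached them. Of the 17 LDL uptake and sterol regulators, 3 rose, among them the sterol carrier Stard4 (21.2 to 42.5 CPM) and Insig1, the retention protein of SREBP (93.7 to 155 CPM). In de novo lipogenesis 5 of 19 members rose and 1 fell, with a median of 0.41. Scd1, the stearoyl-CoA desaturase, went from 869 to 1390 CPM (controls 4363 and 5136). The other rises were those of Tmem97, Elovl5, Fads2 and Acss2. The member that fell was Lpin1, a phosphatidate phosphatase that fasting and stress hormones induce, from 118 to 43.8 CPM (controls 98.0 and 84.1).

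The promoters of Hmgcs1 (chr13:119690101-119690350) and Idi1 (chr13:8885356-8885605), both on the plus strand of GRCm38.p6 in RefSeq, are shown for the sterol genes. Capitals mark CCAAT on either strand and, in Hmgcs1, the sterol regulatory element TCACNCCAC.
Hmgcs1: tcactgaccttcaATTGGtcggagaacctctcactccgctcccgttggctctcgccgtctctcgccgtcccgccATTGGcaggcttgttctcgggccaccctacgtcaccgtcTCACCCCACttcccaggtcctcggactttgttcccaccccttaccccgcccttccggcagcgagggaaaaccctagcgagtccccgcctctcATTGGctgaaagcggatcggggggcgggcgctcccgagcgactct
Idi1: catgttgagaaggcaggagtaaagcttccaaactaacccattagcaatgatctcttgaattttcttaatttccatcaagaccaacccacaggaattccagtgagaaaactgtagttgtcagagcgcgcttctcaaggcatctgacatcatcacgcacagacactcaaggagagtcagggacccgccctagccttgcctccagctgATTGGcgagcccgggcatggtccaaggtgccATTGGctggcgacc
Of the 16 sterol synthesis genes with a promoter in the table, 15 held CCAAT (93.8%) and 1 held TCACNCCAC (6.25%). Over all promoters of that length the shares were 37.5% and 1.22%. That the element was met once says only that these letters are not in the other windows.

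Detoxifying enzymes were divided. Of 26 cytochrome P450 genes of families 1 to 3 compared, 3 rose and 4 fell, with a median of -0.20. Cyp2c29, a main arachidonate epoxygenase of mouse liver, went from 66.8 to 226 CPM (controls 1366 and 1218). Cyp2a4, a steroid hydroxylase that is higher in females, had the largest fall of all genes compared, from 963 to 193 CPM, a 4.98-fold lower level (4.82 to 5.15). It stood at 8.94 and 9.66 CPM in the controls, so it remained far above them. Its close copy Cyp2a5 went from 2646 to 1751 CPM (controls 649 and 560), and the sum of the 2 went from 3609 to 1945 CPM. Also rising were Cyp2c55 (21.5 to 48.7 CPM) and Cyp2j5 (48.1 to 80.2 CPM), and also falling were Cyp3a13 (128 to 64.7 CPM) and Cyp2c38 (26.6 to 13.6 CPM). Among the phase II conjugating enzymes 5 of 23 rose and 0 fell. Sult2a8, a sulfotransferase of bile acids, went from 1.92 to 10.01 CPM, but its controls held 542 and 570 CPM. Ugt3a2 went from 7.57 to 28.0 CPM (controls 350 and 299), and the other rises were those of Ugt1a5, Ugt3a1 and Sult1d1. Of the 39 NRF2 and glutathione genes, 5 rose and 3 fell, and 30 stood above both controls at both times. The share of all genes in that position was not counted. Also in it were 67 of 69 cytosolic ribosomal protein genes and 29 of 32 splicing factors. Srxn1, which repairs oxidized peroxiredoxins, went from 1018 to 506 CPM (controls 48.7 and 41.7), and Cbr3, a carbonyl reductase, from 74.2 to 30.6 CPM (controls 0.470 and 0.501). Gclc, which catalyses the first step of glutathione synthesis, went from 1072 to 682 CPM. Against these, the glutathione transferases Gstm3 (2272 to 4248 CPM) and Gstm2 (296 to 523 CPM) moved further above the controls, and Gstt3, Gstt2 and Osgin1 rose too. The Gstm genes are similar in sequence and uncertain singly.

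Most genes of amino acid and nitrogen metabolism stood somewhat higher after 7 days. In amino acid catabolism 7 of 38 genes rose and 2 fell, with a median of 0.32 (control pair 0.03), and 30 stood below both controls at both times. The share of all genes below both controls at both times was not counted. Prodh2, which breaks down hydroxyproline, went from 18.8 to 62.6 CPM (controls 218 and 186). Hal, which degrades histidine, went from 64.1 to 117 CPM (controls 427 and 417). Tat, the tyrosine aminotransferase that glucocorticoids induce, went down in both pairs, from 1609 to 823 CPM and from 1455 to 600 CPM, and the other member that fell was Gpt2, an alanine aminotransferase (793 to 443 CPM). In the urea cycle list 2 of 14 rose, Otc (101 to 168 CPM) and Oat (244 to 385 CPM), with a median of 0.36. Of the 25 methionine, betaine and folate genes compared, 5 rose and 0 fell. These pathways use or spare choline and methionine, the nutrients changed by the diet. Bhmt, which methylates homocysteine with betaine made from choline, went from 675 to 1361 CPM, a ratio of 2.02 (1.98 to 2.06), against 2298 and 2271 CPM in the controls. Chdh, which makes betaine from choline, went from 235 to 404 CPM (controls 222 and 196), the 1 rise among 15 choline and phosphatidylcholine genes. Nnmt, which uses S-adenosylmethionine to methylate nicotinamide, went from 23.5 to 54.3 CPM (controls 114 and 122). The other members that rose were Gamt, Csad and Shmt1.

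Glucose genes moved both ways. Of 28 compared, 5 rose and 4 fell, with a median of 0.01. Pklr, the liver pyruvate kinase, went from 16.8 to 45.7 CPM (controls 146 and 257). Fbp1, Pygl and Sesn3 rose as well. Pck1, the rate-limiting enzyme of gluconeogenesis, fell in both pairs, from 1466 to 876 CPM and from 2751 to 1533 CPM. Igfbp1, a secreted IGF-binding protein that insulin represses, likewise fell in both, from 192 to 92.1 CPM and from 40.4 to 21.3 CPM. The other falls were those of Trib3 and of Ppp1r3b, which targets a phosphatase to glycogen (59.1 to 32.9 CPM). Pklr rose in the control pair too, where its change was 0.82 on the log2 scale.

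Zone and maturity markers gave a mixed picture. Of 19 pericentral Wnt genes compared, 4 rose and 0 fell, with a median of 0.40, and of 18 periportal genes 4 rose and 1 fell, with a median of 0.35. Rgn, regucalcin, went from 114 to 255 CPM (controls 780 and 865), and Pigr, which carries IgA into bile, from 43.3 to 117 CPM (controls 1451 and 1343). Lect2, a pericentral hepatokine, went from 89.5 to 158 CPM and stood above its controls at both times (75.3 and 76.7). The other rises were those of Oat and Ctnnbip1 among pericentral genes and of Aldh1b1, Hal and Cdh1 among periportal ones, where Pck1 was the fall. Only 2 of 27 liver-enriched transcription factors passed 1.5-fold: Foxa1 rose from 13.4 to 24.0 CPM and Cebpd fell from 25.2 to 12.98 CPM. Hnf4a, the master factor of hepatocyte identity, went from 335 to 458 CPM, a change of 0.45 that misses 1.5-fold (controls 851 and 864). In the growth hormone and sex-biased list, where Cyp2a4, Slco1a1 and Igfbp1 are the 3 falls among 27, Igfals, the growth hormone-dependent carrier of IGF1, went from 12.9 to 40.5 CPM (controls 141 and 141), and Mup3, Cish, Nudt7 and Cyp4a12b rose as well. The fetal genes compared that passed 1.5-fold all moved away from the controls. Afp, the fetal plasma protein alpha-fetoprotein, went from 632 to 2272 CPM, a ratio of 3.59 (3.53 to 3.66), and the controls held 1.74 and 2.15 CPM. Prom1, a progenitor surface protein, went from 27.8 to 60.7 CPM (controls 0.753 and 1.45), and Golm1, a Golgi protein raised in liver disease, from 46.6 to 100.2 CPM (controls 4.85 and 4.41). Of the 25 oncofetal genes in the table, 11 passed the filter, and of these 4 rose (Ly6d is the fourth) and 0 fell. All 11 stood above both controls at both times. Control levels of this list were low, so the filter passed mainly genes high in the libraries labelled OGT-KO. The summed level of all 25 went from 1541 to 3518 CPM, against 55.0 and 49.4 CPM in the controls. Of 18 bile duct and progenitor markers compared, 4 rose and 0 fell, with a median of 0.37. All 18 were above both controls at both times, a position that the filter likewise favours. The 4 that rose were the laminin receptor subunit Itga6 (a change of 1.04 on the log2 scale, to 32.0 CPM), the epithelial protease Mmp7 (16.7 to 35.01 CPM), Fgfr2 (76.8 to 126 CPM) and Bicc1 (90.4 to 147 CPM).

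**Figure D4:**
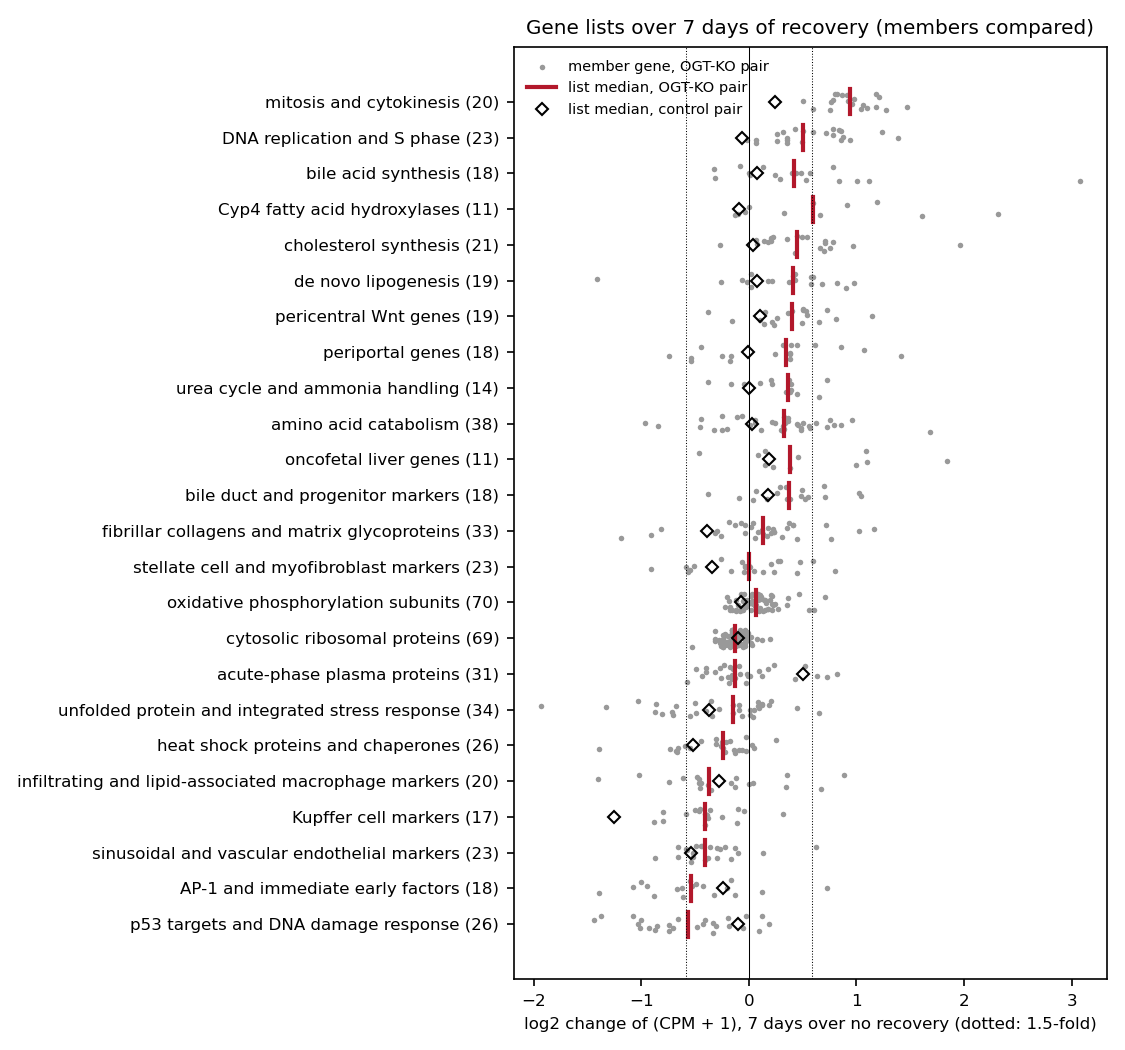
Change of the members of 24 gene lists in the pair labelled OGT-KO (horizontal axis, log2 of CPM + 1, 7 days over no recovery), with the number of members compared in brackets. Grey points are genes, red bars list medians, open diamonds the medians of the same lists in the control pair, and dotted lines mark 1.5-fold. The mitosis list has its median at 0.94 against 0.25 in the control pair, and the p53 list at -0.57 against -0.10.

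Matrix genes stood high at both times and were divided in direction. Of 33 collagens and matrix glycoproteins compared, 32 stood above both controls at both times, 4 rose and 3 fell, and the median was 0.13 (control pair -0.39). Control levels of many members were low, so the filter favours members high in the libraries labelled OGT-KO. The summed level of all 35 in the table was 10719 and 12371 CPM, against 3760 and 3925 CPM in the controls. Those that rose were Eln, elastin (156 to 351 CPM, controls 5.88 and 3.60), its fibre partner Mfap4 (19.7 to 41.2 CPM), Col6a3 (267 to 453 CPM) and Fmod (13.5 to 22.8 CPM). Those that fell are glycoproteins made early in wounds: Tnc, tenascin C (84.4 to 36.6 CPM, controls 1.93 and 1.20), Thbs1, thrombospondin 1 (74.2 to 39.0 CPM), and Postn, periostin (133 to 75.1 CPM). Ccn2, a matricellular target of YAP and TGF-beta, fell as well, from 146 to 66.7 CPM and in the controls from 8.14 to 3.00 CPM. Among matrix proteases and their partners 6 of 21 rose and 3 fell, with Mmp12, the macrophage elastase, going from 70.5 to 26.0 CPM (controls 0.470 and 0.601) and Ctsl and Adamts1 as the other falls. Stellate cell markers changed little as a list, with 2 of 23 rising, 2 falling and a median of 0.01. The members that rose were Pdgfra (29.4 to 52.2 CPM) and Ngfr (17.2 to 26.5 CPM), and those that fell were Ecm1 (177 to 93.8 CPM) and the myofibroblast actin Acta2 (94.3 to 62.4 CPM).

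Most macrophage and endothelial markers were lower after 7 days. Of 17 Kupffer cell markers, 16 were below 0 and 3 fell past 1.5-fold (2.33% of all genes compared did), with a median of -0.41. Over all 8963 genes compared, 4887 were below 0. The control pair went further in the same direction, with 13 falls and a median of -1.25. Cd5l, a secreted protein of resident macrophages, went from 247 to 133 CPM and in the controls from 73.3 to 25.6 CPM. The scavenger receptor Marco went from 119 to 68.3 CPM (controls 11.1 and 3.50), and Fcna, a ficolin, from 48.5 to 27.4 CPM. Of 20 markers of infiltrating and lipid-associated macrophages, 4 fell and 2 rose in the pair labelled OGT-KO, with a median of -0.37. In the control pair 7 fell and 1 rose, with a median of -0.27. Those that fell in the pair labelled OGT-KO were Mmp12, Gpnmb (54.8 to 26.5 CPM), Lgals3 (76.4 to 45.3 CPM) and Trem2 (25.2 to 16.2 CPM). Those that rose were the fractalkine receptor Cx3cr1 (17.7 to 33.6 CPM) and Fabp5 (23.8 to 38.5 CPM). Of 23 endothelial markers, 21 were below 0, 3 fell (Vwf, Lyve1 and Pecam1) and Cd34 rose, with a median of -0.41 and -0.54 in the control pair.

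Plasma protein genes moved singly. Of 31 acute-phase genes compared, 3 rose (Orm2, Crp and Saa2) and 0 fell, and the median was -0.13, while in the control pair 13 rose and the median was 0.51. The sum of Orm1 to Orm3 moved by 0.53 on the log2 scale in the pair labelled OGT-KO. That of Saa1 and Saa2 moved by 0.39, and both sums miss 1.5-fold. Within the serpins 3 of 18 rose and 3 fell. Serpina7, thyroxine-binding globulin, the gene for which the TBG promoter of the vectors is named, went from 195 to 59.7 CPM (controls 25.0 and 24.3). Serpina12, vaspin, went from 24.7 to 5.72 CPM (controls 65.0 and 63.2), and so moved away from its controls. The rises were those of Serpina6, Serpina1d (236 to 500 CPM) and Serpinf1 (162 to 266 CPM). Serpina1d has near-identical copies, and the sum of Serpina1a to Serpina1e moved by only 0.19 on the log2 scale. Klkb1, plasma prekallikrein, went from 6.25 to 23.6 CPM (controls 179 and 161), and Plat, the tissue plasminogen activator, from 55.5 to 117 CPM (controls 0.423 and 0.300). Afm, a vitamin E-binding protein, went from 25.3 to 91.8 CPM (controls 169 and 183), and Apom, an apolipoprotein that carries sphingosine phosphate, from 28.9 to 85.8 CPM (controls 202 and 188).

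The remaining lists differed in how many of their members passed 1.5-fold in the pair labelled OGT-KO. There were none among the cytosolic ribosomal proteins (0 of 69), proteasome subunits (0 of 33), splicing factors (0 of 32), cell death mediators (0 of 17), metallothioneins and zinc transporters (0 of 12), glycolytic isozymes (0 of 16) and the annexins and S100 proteins (0 of 14). Oxidative phosphorylation had 2 rises (Ndufa3 and Uqcr10) among 70, complement 3 falls (Fcna, Cd55 and Mbl2) among 29, interferon-stimulated genes 1 fall (Usp18) among 32, MHC presentation 1 fall (H2-D1) among 22 and TGF-beta components 1 fall (Inhbe) among 23. Hepatocyte junction genes had 1 rise among 16, that of Cdh1. Apolipoprotein and lipoprotein genes had 1 rise (Apom) and 1 fall (Pltp) among 21, lipid droplet genes 2 rises (Fabp1 and Fabp5) and 1 fall (Cidec) among 20, iron genes 1 rise (Hamp2) among 23, and Notch and YAP targets 2 rises (Birc5 and Heyl) and 1 fall (Ccn2) among 20. Growth factors and receptors of regeneration had 4 rises (Fgfr4, Ccnd1, Fgfr1 and Fgfr2) and 4 falls (Gdf15, Tnfrsf12a, Nrg4 and Il6ra) among 22, coagulation genes 2 rises (Klkb1 and Plat) and 2 falls (Thbd and Vwf) among 27, chemokines and their receptors 3 rises (Ccl9, Cx3cr1 and Cxcl12) and 1 fall (Ccl6) among 9, and actins, tubulins and keratins 3 falls (Tubb2b, Tubb2a and Tuba4a) among 25. T, NK and B cell markers were nearly all under the filter, and the neutrophil genes S100a8 (5.60 to 10.5 CPM) and S100a9 (6.95 to 10.7 CPM) were at low levels. Of the erythroid markers 1 of 5 rose (Alas2, 10.1 to 24.0 CPM, controls 213 and 171), of the adipocyte markers Car3, which hepatocytes also make, rose and Cidec fell, and of the dendritic cell markers 0 of 2 passed 1.5-fold.

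The pair labelled OGT-KO shared part of its falls with the control pair at 2-fold, and part of both its falls and its rises at 1.5-fold. In the control pair 22 genes were at least 2-fold higher after 7 days (0.245%) and 86 at least 2-fold lower (0.96%). Of the genes at least 2-fold higher, 0 were shared between the pairs, and 2 genes that were higher in the pair labelled OGT-KO were lower in the control pair, Cyp4a10 and Cyp4a14. With 0.245% of all genes higher in the control pair, a count of 0 among 93 genes is near that share and is not a result. At 1.5-fold, 21 genes rose in both pairs, which is 5.61% of the 374 and 19.3% of the 109 (1.22% of all genes) that rose in the control pair. Of the 39 genes at least 2-fold lower, 7 were also at least 2-fold lower in the control pair, 17.9% of the first list and 8.14% of the second: Atf3, Ccn2, Ddit3, Hspa1b, Per1, Plk3 and Tsc22d3. The share of 17.9% stands beside 0.96% over all genes. At 1.5-fold 50 genes fell in both, 23.9% of the 209 and 13.7% of the 364 (4.06% of all genes). Of the 39 lower genes 32 stood above both controls at no recovery, and 27 of these were still above both at 7 days. The rule that picked the 39 likewise favours genes high with no recovery, and the share of all genes above both controls was not counted. The difference between the pairs was not tested, since each group holds 1 library.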

How the data were processed

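Liver mRNA of 4 pools was sequenced. The authors deposited a table named for DESeq2 normalization, but per the file headers and values it holds CPM: every column sums to 1000000, and 100% of values are whole multiples of 1 read (tolerance 0.01 reads), so reads were recovered. The submitters' processing notes name STAR, DESeq2 and GRCm39; versions, the counter and the handling of shared reads are not given in the sources used here. The change was log2(CPM + 1) at 7 days minus no recovery, over genes averaging 10 CPM or more. Ratio intervals are exact (Clopper-Pearson) on reads. No test between conditions was run.

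Members and lists (65, and 2 added) were chosen with earlier results of these data known. Named were Ogt and Oga, the 15 largest rises and falls past 2-fold, up to 4 members of each list by change past 1.5-fold (by level where none passed), the 8 genes differing most from the control pair, the 5 highest genes and cell type markers. Further genes were named after their values were seen, and a few genes are not reported here. Promoters came from RefSeq (GRCm38.p6) by symbol. Alternatives were pseudocounts of 0.1 and 10, no filter, a mean of 50, a mean over the 2 OGT-KO libraries, 2 scalings, 1.5-fold and 4-fold limits, and an exact binomial test. On simulated reads for this pair, with 200 genes changed 4-fold, the calls were checked. Python 3.11.15, pandas 2.3.3 and scipy 1.17.1 were used. CPM are shares of a library, so a rise of abundant genes lowers the rest.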

Additional observations from a re-analysis of the deposited data

Results flagged for a closer look

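With 1 library per group, no group was large enough for a check of single libraries, and the results singled out are the genes past 2-fold in the pair labelled OGT-KO that moved past 1.5-fold in the opposite direction in the control pair. The difference was not tested. Cyp4a14 changed by 2.32 on the log2 scale in the pair labelled OGT-KO and by -1.90 in the control pair, and Cyp4a10 by 1.61 and -1.55. Both encode hydroxylases of fatty acids, and as related genes they may share some reads. Akr1c19, an aldo-keto reductase, changed by 1.57 and -0.61, going from 11.5 to 36.0 CPM against 70.4 and 45.8 CPM in the controls. Itga8, an integrin subunit of stellate cells and other mesenchymal cells, changed by 1.23 and -0.59, going from 26.7 to 64.0 CPM against 5.17 and 3.10 CPM. Acot1, a thioesterase of long-chain acyl-CoA, changed by 1.17 and -0.75. The sum of Acot1 to Acot4 changed by only 0.52 and -0.35, short of 1.5-fold in both pairs. Slc13a5, the citrate importer of hepatocytes, changed by -1.14 and 1.21, going from 28.6 to 12.5 CPM against 1.32 and 4.36 CPM, so its libraries drew closer while the library labelled OGT-KO stayed the higher of the pair at each time.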

How the results depend on the processing

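Counts of genes past 2-fold depended mainly on how low levels were treated and on the limit. With a pseudocount of 10 the pair labelled OGT-KO had 39 higher and 18 lower genes and the control pair 12 and 21, and with a pseudocount of 0.1 the control pair had 35 and 130. With no filter on low values there were 178 higher and 110 lower genes in the pair labelled OGT-KO and 134 lower in the control pair. With a mean of at least 50 CPM there were 40 and 14, and 11 and 31 in the control pair. At 1.5-fold there were 374 and 209, and 109 and 364 in the control pair, and at 4-fold 7 and 1, and 3 and 2 in the control pair. Median-ratio scaling gave 115 higher and 29 lower genes, so the share of higher among called genes went from 70.5% to 79.9%, and the median over all genes from -0.03 to 0.04. Upper-quartile scaling gave 111 and 33, scaling of the pair alone 102 and 37, and leaving the 100 highest genes out of the library totals 102 and 38, the last 2 chosen after seeing the data. The exact binomial test left all 93 and 39, and called 5065 of 8963 genes in that pair at an adjusted p under 0.05 (3557 in the control pair), a comparison of libraries, not of conditions. Of 553 recomputed list medians 36 moved by over 0.1, and of 1899 recomputed changes of named genes 208 moved. The changes of sign were in medians and genes near 0, the largest being the serpin list, at -0.14 and at 0.11 with a mean of at least 50 CPM. No paired analysis was possible because each group holds 1 pooled library, and for the same reason no replicate could be left out. Depth limits little here, while the spread between mice is not known.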

Other observations

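A set of genes that glucocorticoids induce in liver, listed after the values of Per1, Zbtb16 and Tsc22d3 had been seen, fell in the pair labelled OGT-KO. Of 22 members compared 11 fell and 0 rose, with a median of -0.65, and in the control pair 8 fell and 3 rose, with a median of -0.41. Zbtb16, a transcriptional repressor, went from 39.8 to 12.1 CPM and in the controls from 33.4 to 16.4 CPM. Tsc22d3, the glucocorticoid-induced leucine zipper, went from 71.1 to 31.9 CPM and in the controls from 75.6 to 26.3 CPM, so its levels were alike in both pairs. Mfsd2a, a lysophospholipid carrier that fasting also induces, went from 72.4 to 25.1 CPM, with 19.4 and 18.2 CPM in the controls. The corticosteroid-binding globulin gene Serpina6, which is not in the list, rose in the same pair.

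Targets of ATF4, listed after the values of Ddit3 and Trib3 had been seen, fell in 11 of 16 members compared and rose in 1, with a median of -0.86 and -0.17 in the control pair. Ifrd1 went from 55.7 to 24.3 CPM and Ppp1r15a, which restores translation after stress, from 40.5 to 21.8 CPM. Of 15 members with a promoter in the table, 5 held TGATGNAA on either strand (33.3%, against 3.91% of all promoters). As both lists were drawn up from the values, their counts describe these libraries only.

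Some genes that fell past 2-fold belong to none of the lists. Wnt4, a Wnt ligand, went from 44.7 to 16.1 CPM (controls 1.55 and 1.85). Colec10, a collectin, went from 23.1 to 7.93 CPM and in the controls from 14.8 to 7.91 CPM. Among the rises outside the lists, Aspg, an asparaginase, went from 18.8 to 68.5 CPM (controls 203 and 265), and Rdh16f2, a retinol dehydrogenase, from 5.64 to 22.5 CPM (controls 71.8 and 87.0). Mup22, a major urinary protein, rested on 6 reads with no recovery and 77 after 7 days, with a ratio whose interval runs from 5.71 to 36.5, while the sum of all Mup genes moved by -0.22 on the log2 scale.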
